A study of Mus musculus with 2 samples.

Results

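Cytosolic ribosomal protein transcripts were compared between tumour-infiltrating M-MDSCs (monocytic myeloid-derived suppressor cells) of mice on a normal-salt diet (NSD) and of mice on a high-salt diet (HSD). A gene was counted as a member when its symbol was Rpl or Rps followed by a number, or Rplp0, Rplp1, Rplp2 or Rpsa. After the number only the letters a, l, x or y were allowed, and pseudogenes and the Rps6k kinases were left out. This gave 82 of the 20653 genes named on the array, 51 of the large and 31 of the small subunit, each read by the brightest of its probes. Female BABL/c mice of both groups carried tumours of 4T1 cells, a mammary carcinoma line. The NSD group ate chow with 0.4% NaCl and drank tap water, and the HSD group ate chow with 4% NaCl and drank water with 1% NaCl, for 16 days. M-MDSCs were taken from the tumours with an isolation kit, equal cell numbers of the mice of a group were pooled, and each pool was hybridised to 1 Agilent array. For the arrays the paper lists fewer mice with NSD than with HSD.

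With 1 array per diet there was no replicate, so no test was made and no p-value is given. A gene was called higher or lower with HSD at a 1.5-fold difference. Signals below are processed intensities in scanner units, before scaling between arrays. The 75th percentile of all non-control probes was 252 units with NSD and 233 with HSD, and each log2 difference (HSD minus NSD) was taken after both had been set equal. A member with the same intensity on both arrays therefore has a small positive log2 difference.

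The ribosome is built from a large and a small subunit, in which many small basic proteins are bound to ribosomal RNA in fixed amounts. Growing cells make the proteins in step with each other, and their mRNAs are among the most abundant in a cell. Most of these mRNAs begin with a C and a run of pyrimidines, the 5′ terminal oligopyrimidine tract, through which the kinase complex mTORC1 and the RNA-binding protein LARP1 control how much of the mRNA is translated and how stable it is. An array reads the amount of mRNA and not its translation.

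The tract was looked for in the RefSeq annotation (GRCm38.p6) as a C at the annotated start followed by at least 4 bases that are C or T, read on the strand of the gene. It was present in 14 of the 62 members with an annotated start window (22.6%) and in 813 of all 27025 genes with a window (3.01%). The following starts are shown because they belong to members that moved or that are discussed below. Each line has 15 bases before the annotated start and 15 from it on, 5′ to 3′, and capitals mark the C and its pyrimidine run.

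Rps6, chr4:86857353-86857382, minus strand: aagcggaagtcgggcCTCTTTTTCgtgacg
Rpl28, chr7:4792950-4792979, plus strand: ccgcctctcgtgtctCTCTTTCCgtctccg
Rps21, the first of 2 annotated starts, chr2:180257364-180257393, plus strand: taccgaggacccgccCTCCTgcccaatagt
Rplp2, chr7:141447636-141447665, plus strand: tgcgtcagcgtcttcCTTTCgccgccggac
Rps19, the first of 3 annotated starts, chr7:24884577-24884606, plus strand: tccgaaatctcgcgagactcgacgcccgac
Rps3, chr7:99483695-99483724, minus strand: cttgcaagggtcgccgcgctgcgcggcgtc
Rpl37, chr15:5116598-5116627, plus strand: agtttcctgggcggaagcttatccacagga

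In the lines for Rps19, Rps3 and Rpl37 no base is in capitals, because the annotated start did not have these letters. They were also absent from the second start of Rps21 and from the other starts of Rps19, and a gene was counted when any of its starts had them. That says only that the letters were not at the annotated position, since annotated starts can differ by some bases from the start a cell uses. Members with the tract had a median log2 difference of 0.0026 (14 genes, from −0.75 for Rps21 to 0.41 for Rpl28). Members measured on both arrays without it had a median of 0.014 (46 genes, from −0.55 for Rps3 to 1.01 for Rps19). The ranges of the groups overlapped over most of their length.

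The ribosomal protein genes as a group differed little between the arrays. Of the 82 members, 80 were well above background on both arrays, Rpl10l was so on the NSD array only, and Rpl39l on neither. Rps19 was called higher and Rps21 and Rpl10l were called lower, which is 3 of 81 members with a usable value (3.70%). Among all 16312 usable genes, 9.86% were called higher and 10.3% lower, 20.2% in either direction. The share of members called was thus smaller than that of all genes. Because the RNA came from a bulk of cells, fewer cells of a type and less RNA per cell cannot be told apart in any of these values.

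**Figure D1:**
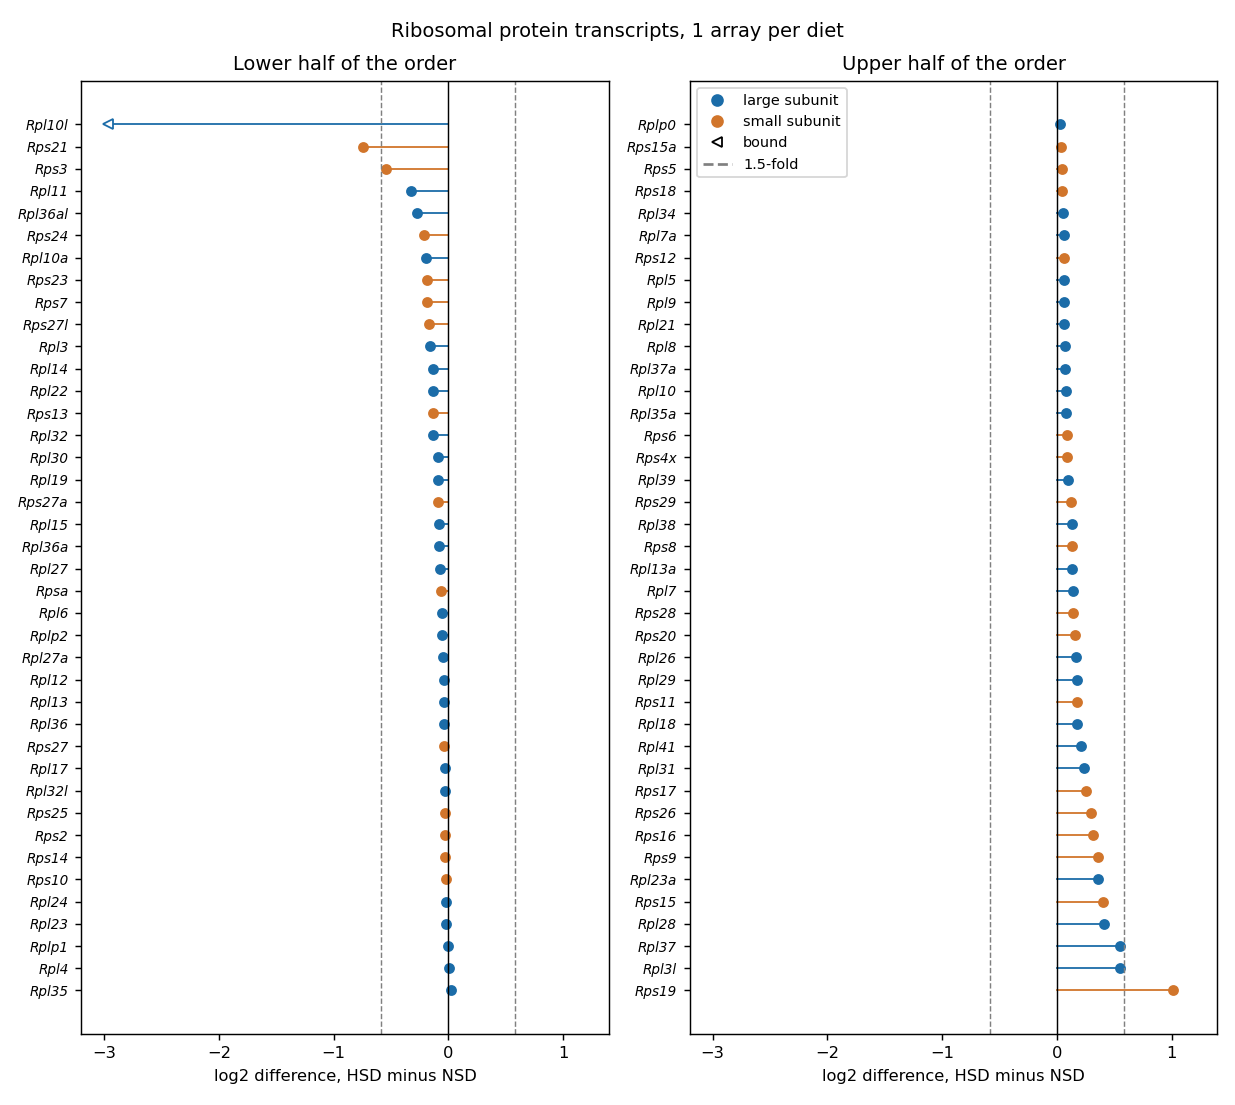
Log2 difference (HSD minus NSD, horizontal axis) of 80 of the 81 ribosomal protein genes with a usable value in the order of their values, the lower part of the order on the left and the upper part on the right, with 1 array per diet. Points are genes coloured by subunit, the open triangle is the bound for Rpl10l, and dashed lines mark 1.5-fold; beyond these lines lie Rps19 on the higher side and Rps21 and Rpl10l on the lower side.

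The spread of the members was narrower than that of all genes. Over the 80 members measured on both arrays, log2 differences had a median of 0.029, quartiles of −0.063 and 0.13 and an SD over genes of 0.23, against a median of 0.044 and an SD of 0.54 over all 15209 genes measured on both. Within 0.2 of 0 lay 62 of the 80 members (77.5%), and 39.3% of those 15209 genes. The sign of so small a median depended on the scaling: it was above 0 as reported, and below 0 under quantile normalization, cyclic loess, scaling on detected probes and in the deposited log2 values. Large subunit members ranged from −0.33 to 0.55 (49 genes, SD 0.18) with none called, and small subunit members from −0.75 to 1.01 (31 genes, SD 0.30) with 1 called in each direction.

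Brightness has to be read beside this spread, since bright probes of all genes were less spread than dim ones on these arrays. Of the 80 members, 79 had 1000 units or more on each array, and the median member had 12827 units with NSD and 11998 with HSD. Among member probes of 10000 units or more, 1.23% were past 1.5-fold (1 of 81), and among all 859 probes of that brightness 6.17% were. Between 1000 and 10000 units the shares were 4.84% of 62 member probes and 13.6% of all 4324 probes. Below 1000 units they were 17.4% of 23 member probes and 18.0% of all 22053 probes. The share of member probes was thus below that of all probes in the bright classes and near it in the dim class, and these differences were not tested.

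**Figure D2:**
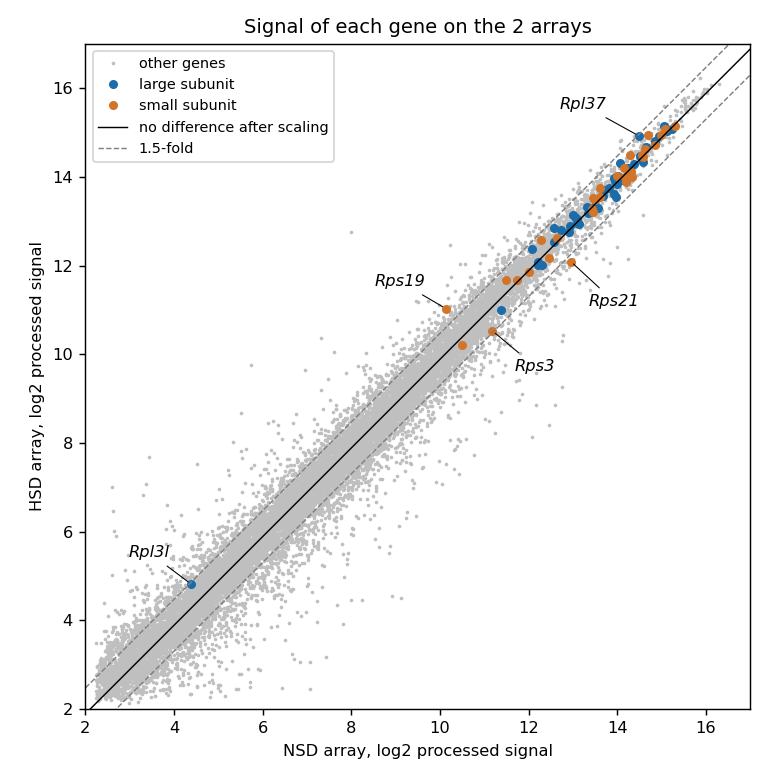
Log2 processed signal of each gene on the NSD array (horizontal) and the HSD array (vertical), with large subunit members in blue, small subunit members in orange and other genes in grey. The solid line is no difference after scaling and dashed lines are 1.5-fold; most members lie at the bright end close to the solid line, with Rps19 above it, Rps21 and Rps3 below it, and Rpl3l at low signal.

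Rps19, a small subunit protein needed for maturation of the small subunit RNA and the gene most often mutated in Diamond-Blackfan anaemia, had the largest rise. Its signal was 1123 units with NSD and 2091 with HSD, a 2.02-fold rise (log2 difference 1.01). Over all ways of processing that were tried the log2 difference of Rps19 lay between 0.93 and 1.02. It rests on 1 probe, so no other probe of the gene could be set beside it. Among the 18 members in which mutations have been linked to this anaemia, Rps19 was the only one called, and 11 lay above 0 and 7 below it (median 0.072). This group was formed after the values had been seen, and 20.2% of all usable genes were called.

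Rps21, a small subunit protein, had the largest fall among members measured on both arrays. Its signal was 7928 units with NSD and 4362 with HSD, 1.68-fold lower (log2 difference −0.75, from −0.86 to −0.63 over the ways of processing). It too has 1 probe on the array. Rps3, which lies where the mRNA enters the small subunit and also has roles outside the ribosome, was just short of the threshold, at 2328 units with NSD and 1474 with HSD (1.46-fold lower, log2 difference −0.55). Rps3 passed 1.5-fold under 5 other ways of processing, but its other probe gave 151 and 140 units, a log2 difference of 0.0086. The 2 probes of Rps3 thus did not show the same difference. Rps2, its neighbour at the mRNA entry, was at 4120 and 3733 units (log2 difference −0.028).

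Some members rose without passing the threshold, and of those given here only Rpl37 came close to it. Rpl37, a zinc-binding protein of the large subunit, had 23020 units with NSD and 31113 with HSD (1.46-fold, log2 difference 0.55, from 0.41 to 0.56 over the ways of processing). Rpl28 of the large subunit had 4295 and 5273 units (log2 difference 0.41). Rps15, whose tail reaches the decoding site, had 5010 and 6124 units (0.40), and its other probe gave 693 and 817 units (0.35). The probes of Rps15 gave nearly the same difference although their brightness differed widely.

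On the lower side, Rpl11 had 16144 units with NSD and 11893 with HSD (log2 difference −0.33). Rpl11 and Rpl5 form, with the smallest ribosomal RNA, a particle that joins the large subunit and that can also bind Mdm2, the inhibitor of p53. Rpl5 was at 6122 and 5908 units (log2 difference 0.063), and the other probes of Rpl11 gave −0.15 and −0.13, so neither member of the pair was called. Rps24 of the small subunit had 20628 and 16458 units (−0.21), and Rpl10a of the large subunit 15629 and 12618 units (−0.19).

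The acidic stalk, which recruits the elongation factors, hardly differed. Rplp0, its base, had 35727 units with NSD and 33594 with HSD (log2 difference 0.025). Rplp1 had 4719 and 4358 units (−0.00058), and Rplp2 had 38858 and 34608 units (−0.053). Rps6, the small subunit protein that S6 kinases phosphorylate, had 11567 and 11371 units (0.090), and Rpsa, which binds the outer face of the small subunit and was first described as a laminin receptor, had 18581 and 16458 units (−0.061). All of these lie within 0.1 of 0, and the signs of Rplp0, Rplp1, Rps6 and Rpsa turned under at least 1 other way of processing.

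Proteins around the exit of the nascent chain and the decoding site were grouped after their values had been seen. Of the 5 at the rim of the exit tunnel, 4 were above 0, from Rpl23a with 17163 and 20340 units (log2 difference 0.36) to Rpl35 (0.025), with Rpl19 at −0.090. In the wall of the tunnel, Rpl4, Rpl17 and Rpl39 lay between −0.033 and 0.10. Of the 4 proteins that contact the decoding site or the peptidyl tRNA, 3 were above 0 (median 0.18), among them Rps16 at 0.32. The 1 below 0 was Rps23, which reaches into the decoding site, at −0.19. By their brightest probes, none of these groups had a member past 1.5-fold. The other probe of Rpl23a, however, had 7437 and 10522 units (0.61), past 1.5-fold. In the tunnel wall too the values depended on the probe. The probes of Rpl17 ran from −0.033 to 0.37 and those of Rpl39 from −0.0023 to 0.34.

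Some ribosomal proteins have a second gene, in a few cases one known for its use in few tissues. Rpl10l, a retrogene of Rpl10 known from the male germ line, had 40.2 units with NSD and was not well above background with HSD, at 4.75 units, which is at least 7.80-fold lower. Its other probe was dimmer, with 7.96 units with NSD and 4.85 with HSD, and under normexp background correction the log2 difference of Rpl10l was −0.46, short of 1.5-fold. Rpl10 itself was at 31601 and 30875 units (log2 difference 0.081). Rpl3l, the form of Rpl3 found in muscle, was dim on both arrays, with 20.8 and 28.2 units (0.55), and Rpl3 was at 5020 and 4144 units (−0.16). Rpl39l, at 3.17 and 3.57 units, did not clear background with either diet, while Rpl39 was at 13415 and 13281 units (0.10).

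The other pairs stayed closer together. The log2 difference of the second gene minus that of the first was 0.020 for Rpl22l1 and Rpl22, −0.13 for Rps27l and Rps27, −0.19 for Rpl36al and Rpl36a, 0.19 for Rpl7l1 and Rpl7, and −0.32 for Rps4l and Rps4x. Rpl36al had 2678 units with NSD and 2052 with HSD (log2 difference −0.27). Among these pairs neither gene was called. Rpl22l1, Rpl7l1 and Rps4l are outside the symbol rule, the last because it is annotated as a transcribed pseudogene.

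Where a member had several probes, they gave a measure that the choice of the brightest probe had not used. There were 171 member probes, up to 7 for a gene, and 30 members had 1 probe only. In 30 of the 50 members with at least 2 probes measured on both arrays, all probes lay on the same side of 0, and the median range between probes of a gene was 0.21 in log2 difference. The 86 other probes measured on both arrays had a median of 0.13, with 4 called higher and 2 lower. All genes measured on both arrays had a median of 0.044, and 18.3% of them were called. These genes were read by their brightest probes, so they are not a like set for the other probes of the members. The brightest probes of the members measured on both arrays had a median of 0.029. Ribosomal protein genes have many near-identical processed pseudogenes, and whether a probe also bound their transcripts was not tested.

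The range passed 1 in 2 members. For Rpl13a, a member of the large subunit that also acts in a complex silencing inflammatory mRNAs, the brightest probe had 10158 units with NSD and 10297 with HSD (log2 difference 0.13). Its dimmer probes had 368 and 830 units (1.29) and 371 and 591 units (0.79), both past 1.5-fold, so the call of Rpl13a turned on the probe. For Rpsa the probes ran from −0.73, at 18.2 and 10.1 units, to 0.31, at 1745 and 1996 units. Rps27a, which encodes ubiquitin fused to a small subunit protein, had a probe with 22393 and 13692 units (−0.60) beside the brightest probe with 20406 and 17707 units (−0.090).

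**Figure D3:**
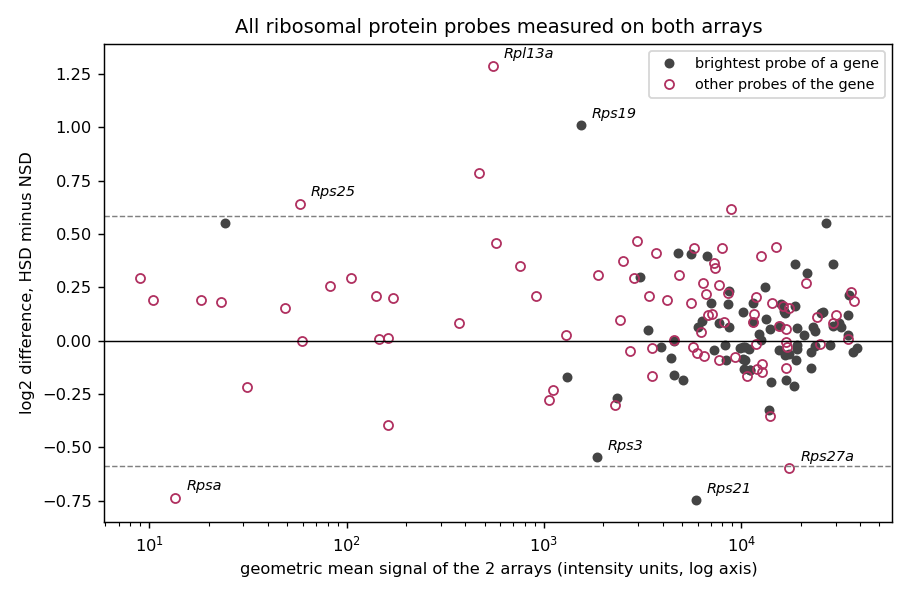
Log2 difference (HSD minus NSD, vertical) of the 166 ribosomal protein probes measured on both arrays against the geometric mean of their signals (intensity units, log axis). Filled points are the brightest probe of a gene, open points its other probes, and dashed lines 1.5-fold; the points past the lines include dim probes of Rpl13a, Rps25 and Rpsa, and the bright probe of Rps21.

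Probes printed in several spots gave the technical spread within an array. Over 289 such probes the median SD between spots was 0.082 in log2, and over the 71 with 1000 units or more it was 0.060. For 2 single spots this gives an SD of the log2 difference of 0.12 and 0.085. It covers neither hybridisation nor the animals. A 10-spot probe of Rpl23, a large subunit protein, had 506 ± 14.3 units with NSD and 643 ± 27.2 with HSD (SD over spots), and the spots of the arrays did not overlap (489 to 527 and 599 to 686). Its log2 difference was 0.46 and that of the brightest probe of Rpl23 was −0.018, so the probes of Rpl23 differed by more than the spread between spots.

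Ribosomal proteins whose symbols do not follow the rule were on both sides of 0. Fau, which encodes a ribosomal protein joined to a ubiquitin-like protein, had 47582 and 52251 units (log2 difference 0.25). Rps3a1 of the small subunit had 5699 and 6496 units (0.30), and Rack1, a scaffold on the small subunit, had 15899 and 12434 units (−0.24). None of them was called.

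Other mRNAs known to carry the pyrimidine tract were read beside the members. At the annotated starts, however, the letters were found in few genes of the lists of such factors. They were present in 0 of 9 elongation and termination factor genes with a window, and in 2 of 33 initiation factor genes. The elongation factors Eef1a1, Eef1b2, Eef1g and Eef2 had log2 differences of 0.078, 0.066, 0.26 and 0.25, and Tpt1, Pabpc1 and Eif4b had 0.023, 0.16 and 0.42. Npm1 and Ncl, abundant nucleolar proteins, were at −0.27 and −0.15. Of genes linked to mTORC1 or to the making of ribosomal proteins, Mtor was at −0.076, Rps6kb1 at 0.25, Eif4ebp1 at 0.42 and Myc at −0.14. Larp1 had 1269 units with NSD and 877 with HSD (−0.42), and passed 1.5-fold only as the median over its probes (−0.65). None was called as reported.

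Of the 41 usable translation initiation factors, none was called higher and 1 lower (median −0.055), Eif2b3 at 42.3 units with NSD and 1.57-fold lower with HSD (−0.65). Of the 12 elongation and termination factors, 1 was called lower (median 0.11), the kinase Eef2k with 37.1 and 22.4 units (−0.61). Of 76 ribosome biogenesis factors, 1 was called higher, Utp4 (0.82), and 3 lower (median −0.037), led by Ltv1, which helps export and mature the small subunit, with 699 and 81.1 units (−2.99). Of 14 genes of RNA polymerase I transcription, Znrd1 was called higher (0.71), and Ubtf was at −0.58, short of the threshold (median −0.058). A list of 24 genes of mTORC1 and the control of ribosomal protein production also held the transcription factors Myc and Max. In it, Max (0.88) and 1 other were called higher and Rptor (−0.86), the subunit that defines mTORC1, lower (median 0.17). In each of these lists too, a smaller share was past 1.5-fold than the 20.2% of all genes.

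**Figure D4:**
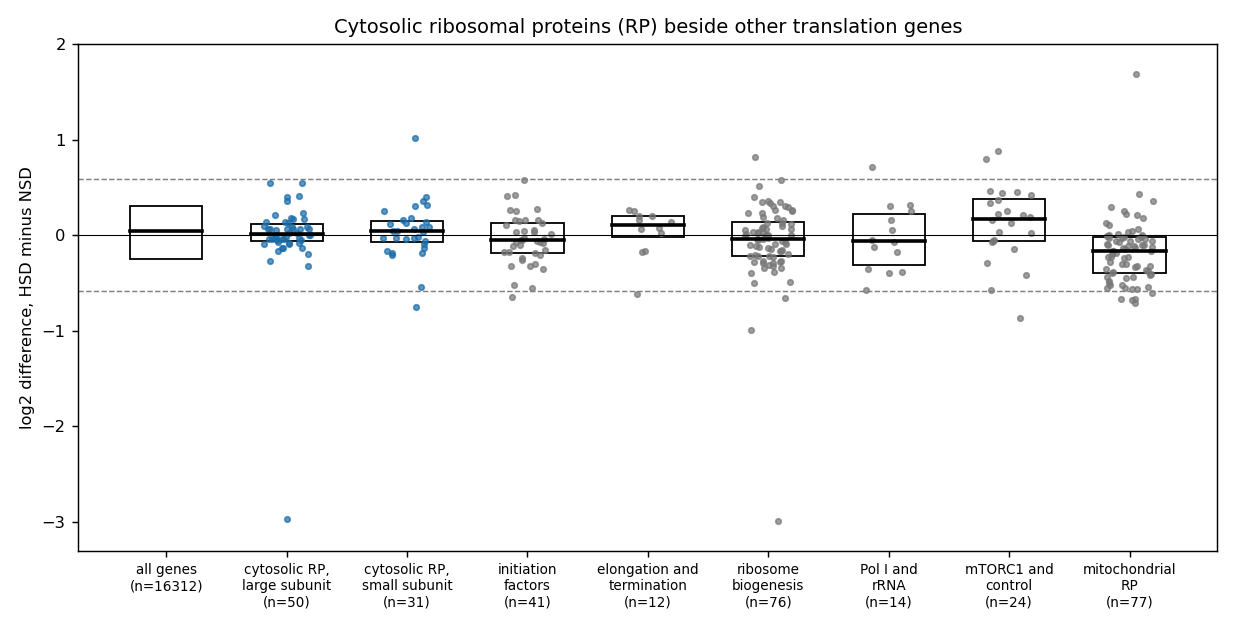
Log2 difference (HSD minus NSD, vertical) of the genes of each list, with 1 point per gene, the box from the lower to the upper quartile, the thick line at the median and dashed lines at 1.5-fold; for all genes the box alone is drawn. The cytosolic ribosomal proteins have narrow boxes around 0, and the box of the mitochondrial ribosomal proteins lies below 0.

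The proteins of the mitochondrial ribosome, which are encoded in the nucleus and translate the mitochondrial mRNAs, did not lie where the cytosolic members did. Of 77 usable genes, 62 were below 0 and 15 above it (median −0.16), against 38 below and 43 above 0 among the 81 cytosolic members (median 0.025). Under all ways of processing the median of the mitochondrial list stayed between −0.21 and −0.12, with 54 to 67 genes below 0. Of the 77, 5 were called lower and 1 higher, a smaller share than the 10.3% and 9.86% of all genes. The lower ones were led by Mrpl11 with 577 and 325 units (−0.71), and Mrpl45 was the higher one, with 1402 and 4171 units (1.69). The median of the cytosolic members lay above that of the mitochondrial list under all 7 ways of background correction and scaling that were drawn. Under each of these 7 the cytosolic median lay below that of all genes. That order depended on the choice of probe. In a setting not drawn, each gene was read by its middle probe value instead of its brightest probe. The cytosolic members then had a median of 0.048 and all genes one of 0.046.

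**Figure D5:**
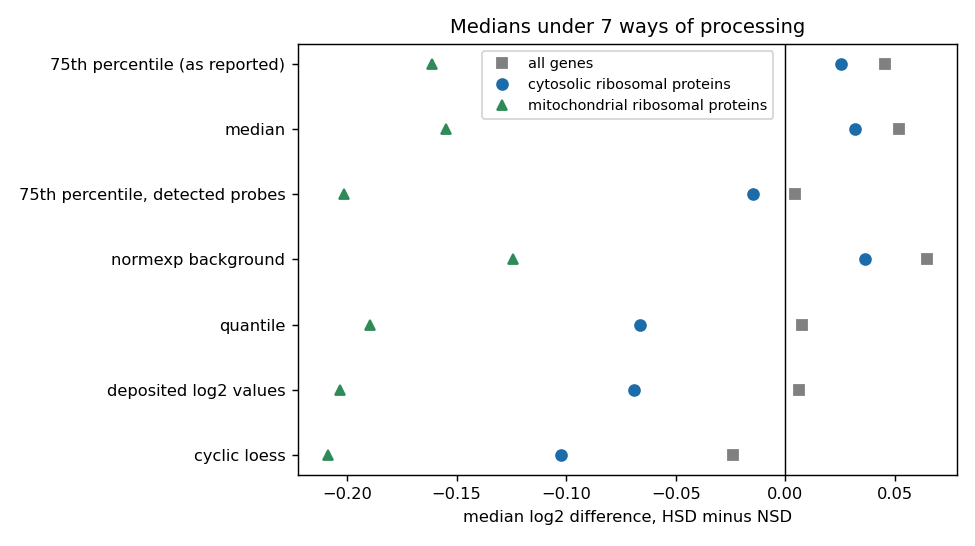
Median log2 difference (HSD minus NSD, horizontal) of all genes (squares), cytosolic ribosomal proteins (circles) and mitochondrial ribosomal proteins (triangles) under 7 ways of background correction and scaling (vertical). The circles lie on both sides of 0, from −0.10 under cyclic loess to 0.036 under normexp correction, and the triangles lie below 0 throughout.

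The cell type label was checked on markers. All 10 measured M-MDSC and monocyte markers were well above background on both arrays, among them Itgam with 31564 and 31043 units and Ly6c1 with 51811 and 48478 units. Of this list Cd14 was called higher (0.82) and Fcgr1 (−3.68) and Ccr2 (−0.78) lower. All 11 measured neutrophil markers were also well above background on both arrays, among them Camp with 61817 and 59920 units and Ltf with 51766 and 51993 units, so the markers did not set monocytic cells apart from neutrophils. Of the macrophage markers, 6 of 9 usable genes were called lower and 1 higher (median −1.36), against 10.3% lower and 9.86% higher of all genes, led by Mrc1 with 134 and 5.49 units, and Cd163 did not clear background with either diet. Of the carcinoma markers 4 of 8 and of the fibroblast markers 4 of 6 were past 1.5-fold. The part of any of these in the ribosomal protein values was not tested.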

How the data were processed

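RNA of M-MDSCs was hybridised to Agilent Mouse GE v2 arrays, with 1 for NSD and 1 for HSD placed on a shared slide. The authors deposited the scanner output, whose processed signals are intensities with the background taken off by Feature Extraction 11.0.1.1 and no scaling between arrays. They also deposited log2 values made with GeneSpring, whose method is not given in the sources used here and whose columns share the same median and upper quartile; these served as an alternative.

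Control and outlier spots (162 with NSD, 179 with HSD) were dropped, spots of a probe were averaged as log2, and the 75th percentile over non-control probes was subtracted. No spot was saturated. A probe was well above background when at least 50% of its spots were, which held for 71.9% of probes with NSD and 72.4% with HSD. A fold change was a bound when 1 array was not above background. Transcript identifiers matched RefSeq (GRCm38.p6) for 27223 of 39413 probes. The number of arrays limits the precision.

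The genes named are members past 1.5-fold, the 6 largest rises and 6 largest falls, the stalk proteins, Rpsa and Rps6, paralogue pairs, members whose probes differ by over 1, fixed genes outside the rule, and the extremes of each list. Of these, some are not reported here. Others were named after their values were seen, as were the role groups. Members and lists were chosen with earlier results of these data known. The lists were the translation lists of the report and markers of monocytes, macrophages, neutrophils, dendritic, T and NK, B, carcinoma, fibroblast, endothelial and erythroid cells. The calling step was tested on simulated data.

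The alternatives tried were limma's normexp correction (offset 50), run on the median signal because no mean signal was in the scanner output used, quantile normalization, median scaling, scaling on probes detected on both arrays, cyclic loess, the deposited values, outlier spots kept, other filters on dim probes, a 2-fold threshold, the median over probes and other memberships. Python 3.11.15, numpy 2.4.6, pandas 2.3.3, matplotlib 3.10.9, R 4.3.3 and limma 3.58.1 were used.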

Additional observations from a re-analysis of the deposited data

How the results depend on the processing

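The median log2 difference of the members, 0.025 as reported (large subunit 0.014, small subunit 0.048, with Rpl10l at its bound), moved to −0.066 with quantile-normalized arrays (−0.069 and −0.055), −0.10 with cyclic loess (−0.11 and −0.088) and −0.069 in the deposited values (−0.078 and −0.043); the cause was not tested. Set against the median of all genes, the members were at −0.020 as reported and at −0.074, −0.079 and −0.076 under these settings. With the median over probes in place of the brightest probe, the members were at 0.0015 on this measure, on the other side of 0. The number called higher was 1 under all settings but the median over probes, which gave 2 by adding Rpl13a. The number called lower, 2 as reported, was 3 with quantile-normalized arrays, scaling on detected probes, cyclic loess and the deposited values. Rps3 was added in each of these. With normexp correction the number stayed at 2, because Rps3 (−0.61) was called and Rpl10l (−0.46) was not. It was 1 with members measured on both arrays only, 1 at 2-fold, and 1 with 6 paralogues left out, a setting added after seeing the data; the first and the last leave out Rpl10l. Of all calls over all genes, 48.9% were higher as reported, 38.5% under cyclic loess and 56.8% with no filter on dim probes. Rps19, Rps21 and Rpl10l kept their sign under all settings run; the called genes of the other lists were not run one by one. No replicate could be left out, and no paired analysis was possible because each diet had 1 array. Slide could not be a block, since both arrays shared it.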

Other observations

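Marker lists of other cells than the monocytic and macrophage lists were read on the same arrays, where 9.86% of all genes were called higher and 10.3% lower. Of 11 neutrophil markers, Mpo alone was called, as lower (−0.92), and the median was 0.069. All 6 B cell markers were above 0 (median 0.47), and Jchain was called higher, with 1205 units with NSD and 2166 with HSD. Of 8 carcinoma and epithelial markers, 4 were called higher and none lower (median 0.39), among them Krt18 at 15.9 units with NSD and 1.70-fold higher with HSD. Of 6 fibroblast markers, 3 were called lower, led by Fap with 58.7 and 21.4 units, and 1 higher (median −0.68). Of 9 T and NK cell markers 1 was called, Cd3e as lower (−1.09), of 7 dendritic cell markers 2 were called higher and 1 lower, of 5 endothelial markers none was called, and of 5 erythroid markers Hbb-bs was called lower (−0.66).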
